A study of Mus musculus with 2 samples.

Results

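The 10 genes described here encode enzymes and a helper protein of eicosanoid synthesis, the making of leukotrienes and prostaglandins from arachidonic acid. They were taken from the deposited table by their gene symbols (Pla2g4a, Alox5, Alox5ap, Lta4h, Ltc4s, Alox15, Ptgs1, Ptgs2, Ptges and Hpgds), and all 10 had a row of their own among 23235. RNA had been sequenced from lineage-depleted bone marrow progenitors of C57B6 mice, carrying 2 retroviral constructs, MIGR1-HA-Hoxa9-ER beside MIGR1-Flag-Meis1. The growth protocol in the labels gives the fusion with ER, while another label field names MIGR1-HA-Hoxa9 without it, and the protocol is followed here. Both conditions carried both constructs, expressed from the MIGR1 vector and not from the cells' own Hoxa9 and Meis1 genes, and both were grown with IL3. Cells that had been transformed in 100 nM 4-hydroxytamoxifen (4OHT), which keeps the Hoxa9-ER fusion in the nucleus, were washed and then kept for 72 h either in 100 nM 4OHT or in ethanol (EtOH), its solvent. The comparison asks how gene expression responds to loss of nuclear Hoxa9 in transformed cells, and that loss and the absence of the drug itself cannot be told apart in it.

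Eicosanoids are short-lived lipid signals of inflammation, made on demand by blood granulocytes, mast cells, macrophages and platelets. A phospholipase frees arachidonic acid from membranes. The lipoxygenase Alox5, helped by the membrane protein Alox5ap, turns it into leukotriene A4, which Lta4h converts to the neutrophil attractant leukotriene B4 and Ltc4s to the cysteinyl leukotrienes of mast cells and eosinophils. The cyclooxygenases Ptgs1 and Ptgs2 instead make prostaglandin H2, the precursor that terminal synthases such as Ptges and Hpgds turn into prostaglandins E2 and D2.

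The table gave 1 FPKM value per gene and condition (fragments scaled to transcript length and library size), each standing for 2 replicates, so no value below has a replicate error. Differences are log2((EtOH + 1)/(4OHT + 1)) of the FPKM values, a scale that shrinks the changes of low genes, and positive values stand for more RNA in EtOH. A gene is said to have risen or fallen where the q-value of the authors' deposited table (Cuffdiff) was at most 0.05. Read totals were not given. Among genes with 1 GENCODE transcript, FPKM times transcript length in kb was read within fixed windows. The median in the lowest window was 0.0220 in 4OHT (170 genes) and 0.0236 in EtOH (162 genes). The median in the next window was 1.93 and 1.92 times that. Fixed windows can give such medians without any steps in the values, so they do not show that the lowest one stands for 1 fragment. If it is taken as 1 fragment, a 1 kb transcript at 1 FPKM had about 45.4 fragments in 4OHT against 42.4 in EtOH. The fragment numbers below are rough estimates on that basis, using the longest GENCODE transcript. Of the 6 haematopoietic progenitor markers checked, all lay between 7.39 and 166 FPKM in both conditions. Spn, Ptprc and Gata2 rose, Cd34 fell from 124 to 45.8 FPKM (log2 change -1.42), and Myb and Kit did not pass. Markers of T and natural killer cells reached at most 0.162 FPKM, with Cd3e, Cd3g and Cd4 listed at 0. B cell markers other than Cd79b lay under 1 FPKM, as did the stromal and endothelial markers other than Pecam1.

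RNA of most of these genes was higher in EtOH than in 4OHT. Of the 10, 6 rose (Alox5, Alox5ap, Alox15, Ptgs1, Ptgs2 and Ptges), 1 fell (Pla2g4a) and 3 did not pass (Lta4h, Ltc4s and Hpgds). Of all 11865 rows that the authors tested, 12.0% were called higher in EtOH, 10.5% lower and 22.5% either way. The median change over the 10 genes was 0.52, beside -0.05 over all tested rows, whose quartiles were -0.25 and 0.18. Only 8 of the 10 reached 1 FPKM in either condition, and Ptges and Hpgds stayed below it. Together the 10 genes made up 0.163% of all FPKM in 4OHT and 0.253% of all FPKM in EtOH. At q at most 0.01 the counts were 6 higher and 1 lower (9.41% and 6.68% of all tested rows), with a ratio of at least 1.5 added to q at most 0.05 they were 5 and 1 (9.89% and 7.23%), and with at least 2-fold 3 and 0 (6.52% and 3.54%). In bulk RNA, more cells of a type that makes these enzymes and more RNA per cell cannot be told apart.

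**Figure D1:**
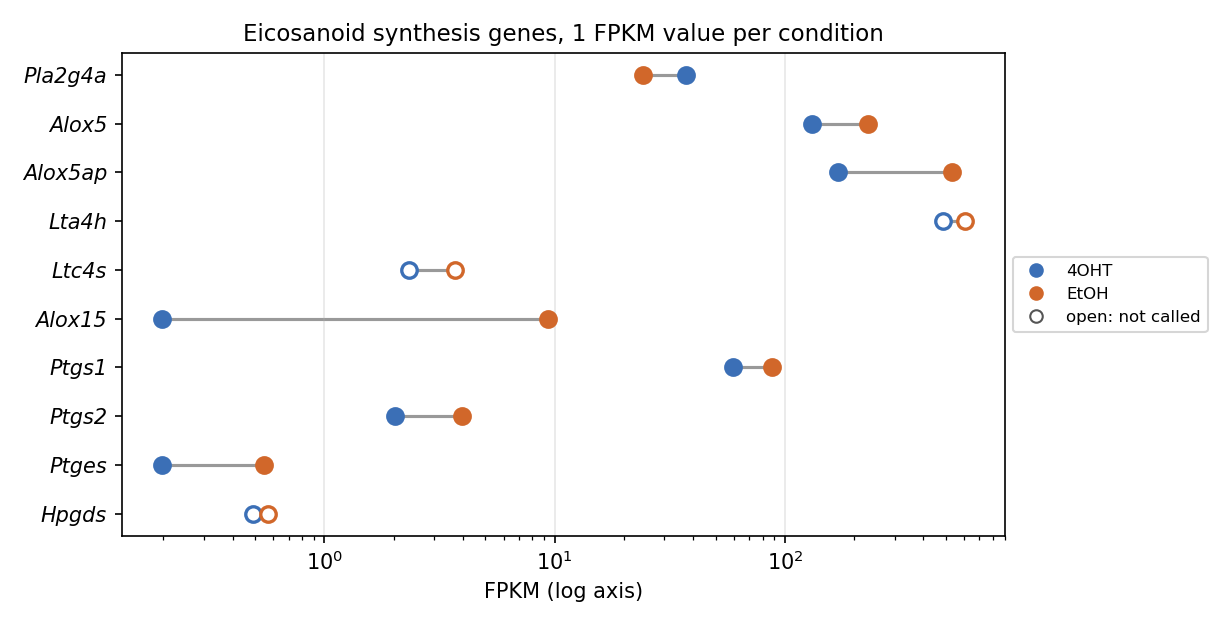
FPKM on a log axis of the 10 eicosanoid synthesis genes in 4OHT (blue) and EtOH (orange), 1 value per condition and no error. Filled points are genes called in the authors' deposited table and open points are genes that were not; Alox15 shows the widest gap, 0.197 against 9.34 FPKM, and Pla2g4a alone among the called genes has the higher value in 4OHT.

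Pla2g4a, a gene of the first step of the pathway, changed in the opposite direction to the 6 genes that rose. Other genes of arachidonate release, described further below, changed in both directions, so its fall does not stand for the whole step. Pla2g4a, the cytosolic phospholipase that frees arachidonic acid in stimulated leukocytes, was at 37.1 FPKM in 4OHT and 24.1 in EtOH. It fell, 1.54-fold, with a log2 change of -0.60 and q = 0.000457 by the authors' deposited table. Only 6.13% of the tested rows had a lower log2 change than Pla2g4a. Its locus spans chr1:151676752-151808414 (mm9).

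The leukotriene branch held the most abundant RNAs of the 10, and both partners of its first reaction rose. Alox5ap, which hands arachidonic acid to the lipoxygenase, was at 170.3 FPKM in 4OHT and 534 in EtOH. It rose 3.14-fold (log2 change 1.64), with q listed as 0 in the authors' deposited table. Alox5, the lipoxygenase itself, was at 131.5 and 229.5 FPKM. It rose 1.74-fold (log2 change 0.80), q = 2.48e-06 by the authors' deposited table. Both were therefore abundant already in 4OHT, where 96.3% of the tested rows lay below Alox5ap and 95.0% below Alox5. The level of Alox5ap relative to Alox5, both per transcript length, was 1.29 in 4OHT and 2.33 in EtOH. The loci are chr6:116360089-116411196 for Alox5 and chr5:150076634-150099623 for Alox5ap (mm9).

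Of the 10 genes, Lta4h and Ltc4s, whose enzymes use leukotriene A4, did not pass the test. Lta4h, the hydrolase that makes leukotriene B4, had the highest FPKM of the 10 genes, 487 in 4OHT and 604 in EtOH, above 98.6% and 98.7% of the tested rows. Its log2 change was 0.31, q = 0.201 by the authors' deposited table. Ltc4s, the synthase of leukotriene C4, was low, at 2.32 FPKM in 4OHT and 3.69 in EtOH. Those values rest on about 76 and 112 fragments, the log2 change was 0.50, and the q-value in the authors' deposited table was 0.319. The FPKM level of Lta4h was thus 209.5 times that of Ltc4s in 4OHT and 163.7 times in EtOH. Lta4h lies at chr10:92916141-92947641 and Ltc4s at chr11:50049974-50051973 (mm9).

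Alox15, a lipoxygenase that adds oxygen at other carbons of arachidonic acid and is known from eosinophils and resident macrophages, changed most. It was at 0.197 FPKM in 4OHT, about 22 fragments, and at 9.34 FPKM in EtOH, about 954. The ratio of the FPKM values was 47.5, the log2 change 3.11, and the q-value was listed as 0 in the authors' deposited table. Of the tested rows 99.3% had a lower log2 change. The level of Alox5 was 24.6 times that of Alox15 in EtOH, against 669 times in 4OHT. Alox15 lies at chr11:70157649-70165533 (mm9).

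In the prostaglandin branch 3 of 4 genes rose, and Ptgs1 had the highest level. This constitutive cyclooxygenase was at 59.5 FPKM in 4OHT and 87.6 in EtOH. It rose 1.47-fold (log2 change 0.55), q = 0.000918 by the authors' deposited table. Ptgs2, the inducible cyclooxygenase of inflammation, was at 2.03 and 3.95 FPKM, about 410 and 746 fragments. It rose 1.95-fold (log2 change 0.71), q = 0.00032 by the authors' deposited table. Ptgs1 had the higher level of the cyclooxygenases in both conditions, 29.4 times that of Ptgs2 in 4OHT and 22.2 times in EtOH. Ptgs1 lies at chr2:36085946-36107789 and Ptgs2 at chr1:151947254-151955142 (mm9).

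Both terminal prostaglandin synthases among the 10 were near the bottom of the tested rows. Ptges, the microsomal prostaglandin E synthase, was at 0.198 FPKM in 4OHT and 0.546 in EtOH, about 33 and 85 fragments. It rose, with a log2 change of 0.37, a ratio of 2.76 and q = 0.00709 by the authors' deposited table. Hpgds, the haematopoietic prostaglandin D synthase of mast cells, was at 0.488 and 0.571 FPKM, about 86 and 94 fragments. Its log2 change was 0.08, q = 0.767 by the authors' deposited table. In EtOH only 4.85% of the tested rows lay below Ptges and 5.28% below Hpgds. They lie at chr2:30744991-30758817 (Ptges) and chr6:65067287-65094724 (Hpgds), both mm9.

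**Figure D2:**
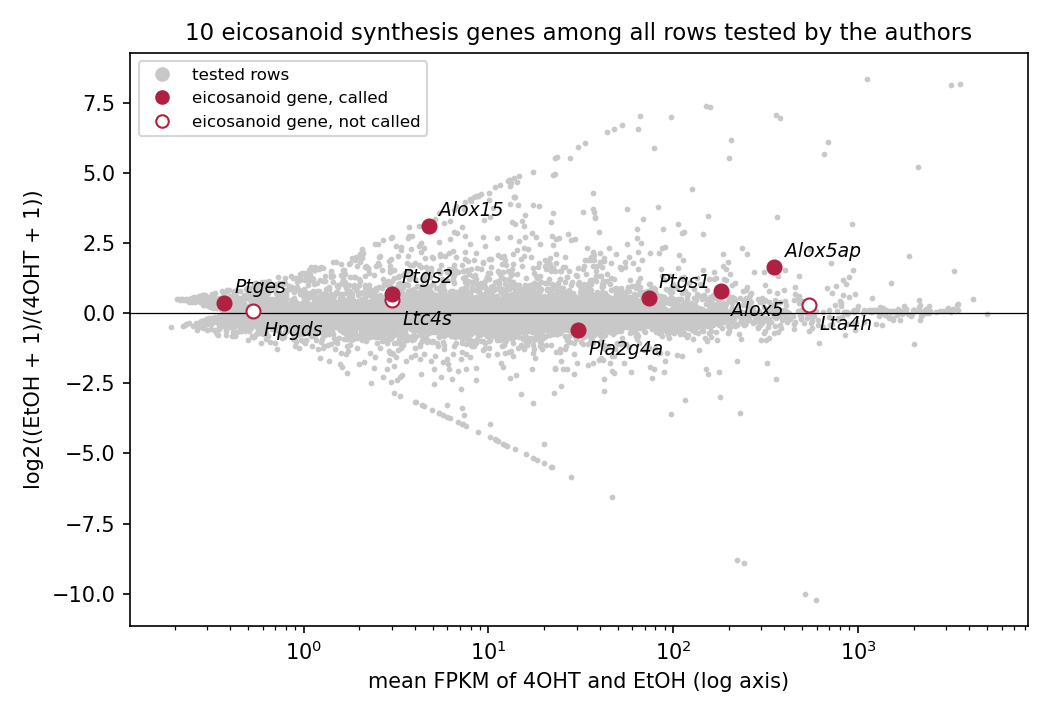
Log2 change, EtOH over 4OHT with 1 added to each FPKM, against mean FPKM (log axis) for the 11865 tested rows (grey) and the 10 eicosanoid synthesis genes (red, filled where called). Alox15 lies at 3.11, above 99.3% of the tested rows, and Alox5ap at 1.64 among abundant RNAs. Pla2g4a is the gene of the 10 below the line, at -0.60.

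Summed by branch, Alox5, Alox5ap, Lta4h and Ltc4s came to 791 FPKM in 4OHT and 1371 in EtOH, a ratio of 1.73. Ptgs1, Ptgs2, Ptges and Hpgds came to 62.2 and 92.7 FPKM, a ratio of 1.49. The difference between the branches has no test, since each condition had 1 value. Both sums rest mostly on 1 to 3 genes, Ptgs1 in the prostaglandin branch and Lta4h, Alox5ap and Alox5 in the leukotriene branch.

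Other genes of the pathway were read from 5 lists with 77 genes, of which 44 reached 1 FPKM in either condition. Among these 44, 13 rose, 7 fell and 24 did not pass, with a median log2 change of 0.21 beside -0.06 over the tested rows of at least 1 FPKM. Of those tested rows 12.0% were called higher and 10.6% lower. Over all 77 genes the median was 0.01, and 9 were listed at 0 in both conditions.

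**Figure D3:**
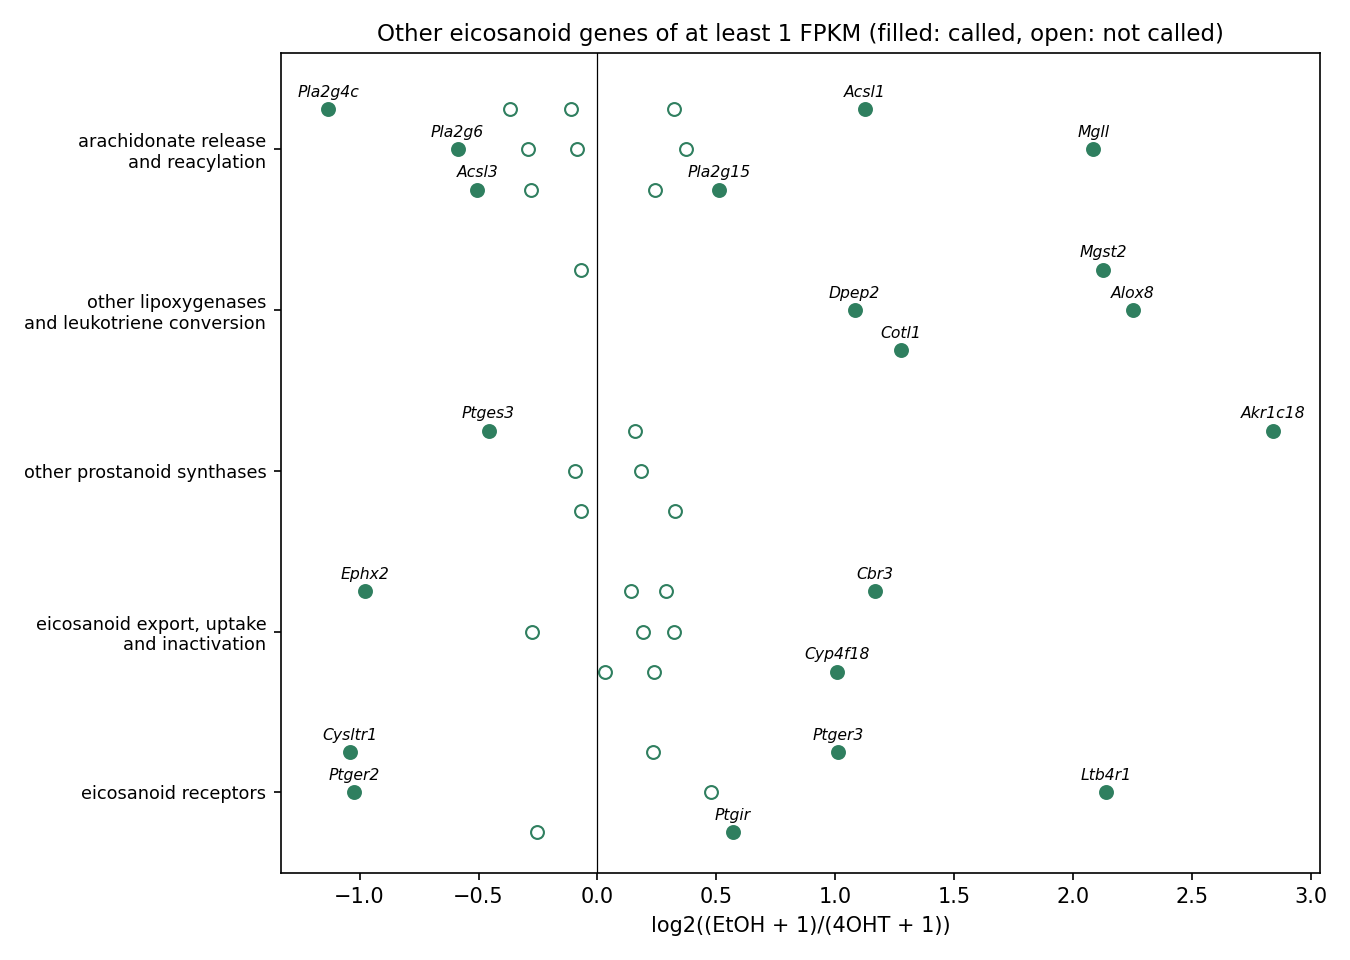
Log2 change, EtOH over 4OHT with 1 added to each FPKM, of the 44 other eicosanoid genes of at least 1 FPKM, in 5 lists. Filled points were called in the authors' deposited table and carry their names, open points were not called; Akr1c18 lies farthest right at 2.84 and Pla2g4c farthest left at -1.13.

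Genes of arachidonate release and reacylation were mixed, with 3 risen, 3 fallen and 8 that did not pass among 14. The other phospholipases that fell were Pla2g4c, a relative of Pla2g4a, from 2.22 to 0.47 FPKM (log2 change -1.13), and the calcium-independent Pla2g6, from 6.67 to 4.10 FPKM (-0.59). The lysosomal phospholipase Pla2g15 rose from 24.6 to 35.5 FPKM (0.51). The largest rise of the list was in Mgll, the monoacylglycerol lipase that also frees arachidonic acid, from 3.66 to 18.8 FPKM (2.09). Acyl-CoA synthetases, which return fatty acids to lipids, split: Acsl1 rose from 11.7 to 26.7 FPKM (1.12) and Acsl3 fell from 18.3 to 12.6 FPKM (-0.50). The Acsl3 locus overlaps Utp14b, at 5.30 and 4.88 FPKM, so reads may not have been assigned with certainty. The secreted phospholipases lay under 1 FPKM, apart from Pla2g12a, which did not pass, at 47.95 and 44.4 FPKM.

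Of 5 other lipoxygenase and leukotriene conversion genes that reached 1 FPKM, 4 rose and none fell. Alox8, another lipoxygenase, rose from 0.508 to 6.19 FPKM (log2 change 2.25). Mgst2, a microsomal glutathione transferase that can also make leukotriene C4, rose from 68.6 to 303 FPKM (2.13). Its level was 29.5 times that of Ltc4s in 4OHT and 82.2 times in EtOH, while the related Mgst3 did not pass, at 7.61 and 7.21 FPKM. Cotl1, an actin-binding protein that also binds Alox5, rose from 99.3 to 242 FPKM (1.28). The dipeptidase Dpep2, which trims leukotriene D4 to E4, rose from 0.133 to 1.40 FPKM (1.08). The other 8 genes of this list lay under 1 FPKM, and Alox12, Alox12b, Alox12e and Aloxe3 were among them.

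Among 7 other prostanoid synthases of at least 1 FPKM, 1 rose, 1 fell and 5 did not pass. Akr1c18, an aldo-keto reductase best known for inactivating progesterone and also assigned to prostaglandin F synthesis, rose from 34.8 to 255 FPKM (log2 change 2.84). Ptges3, a cochaperone of Hsp90 that also bears the name of a prostaglandin E synthase, fell from 116 to 84.3 FPKM (-0.46), and 19.6% of its words of 50 bases are found in other genes' transcripts too. The thromboxane synthase Tbxas1 did not pass, at 56.9 and 71.5 FPKM, q = 0.0956 by the authors' deposited table. Its level was 117 times that of Hpgds in 4OHT and 125 times in EtOH. Against Ptges it was 288 times as high in 4OHT and 131 times in EtOH.

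Export and inactivation genes had 2 risen, 1 fallen and 7 that did not pass among 10. Cyp4f18, a cytochrome P450 that inactivates leukotriene B4 in neutrophils, rose from 8.79 to 18.7 FPKM (log2 change 1.01). The carbonyl reductase Cbr3 rose from 0.267 to 1.85 FPKM (1.17), and the epoxide hydrolase Ephx2 fell from 1.65 to 0.345 FPKM (-0.98). Hpgd, the enzyme that starts the breakdown of prostaglandins, did not pass, at 3.07 and 2.37 FPKM.

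Eicosanoid receptor genes moved in both directions, with 3 risen, 2 fallen and 3 that did not pass among 8. Ltb4r1, the high-affinity receptor of leukotriene B4, rose from 27.0 to 122 FPKM (log2 change 2.14). Cysltr1, a receptor of the cysteinyl leukotrienes, fell from 4.98 to 1.90 FPKM (-1.04). The level of Ltb4r1 was 5.43 times that of Cysltr1 in 4OHT and 64.4 times in EtOH. Of the prostaglandin E2 receptors, Ptger3 rose from 8.41 to 17.99 FPKM (1.01) and Ptger2 fell from 4.73 to 1.82 FPKM (-1.02). Ptger4 did not pass, at 6.19 and 5.03 FPKM. The prostacyclin receptor Ptgir rose from 15.0 to 22.7 FPKM (0.57). Receptors of prostaglandin D2, prostaglandin F2 and thromboxane (Ptgdr, Gpr44, Ptgfr and Tbxa2r) lay under 1 FPKM and were not tested by the authors.

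**Figure D4:**
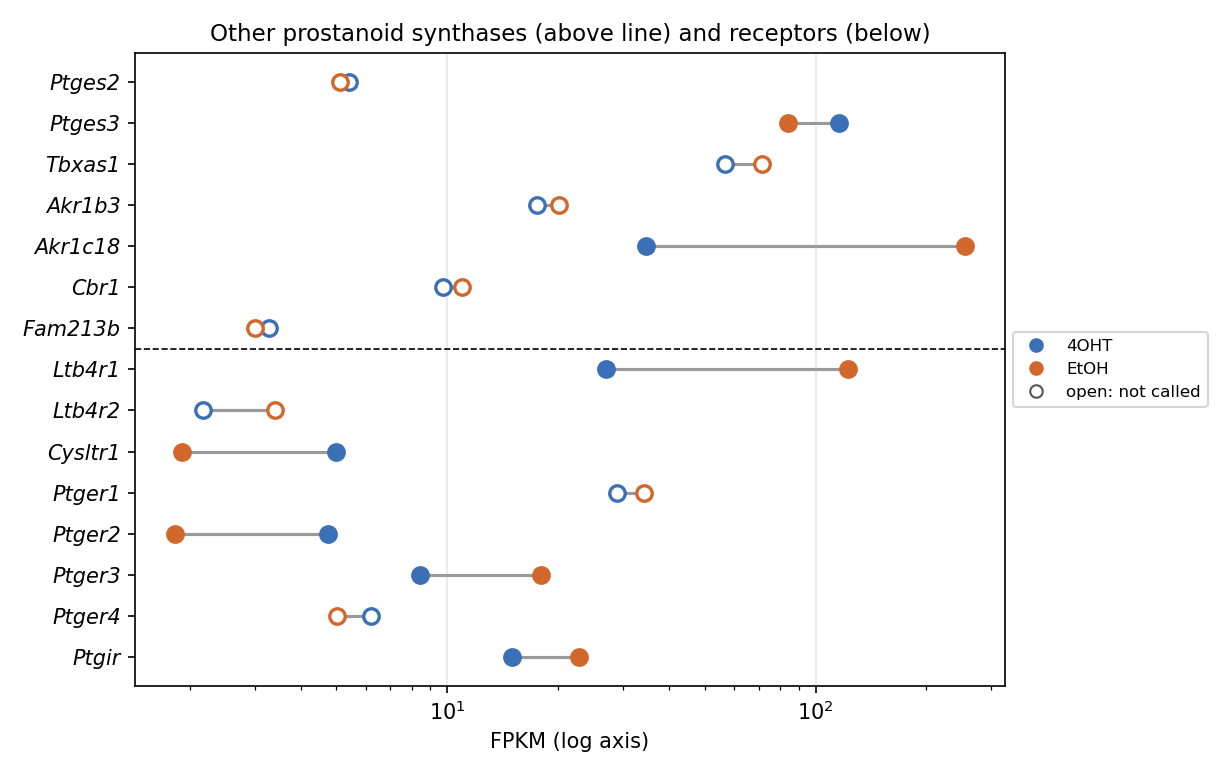
FPKM on a log axis in 4OHT (blue) and EtOH (orange) of other prostanoid synthases (above the dashed line) and eicosanoid receptors (below it) of at least 1 FPKM, filled where called and open where not. Akr1c18 and Ltb4r1 have the widest gaps upward, to 255 and 122 FPKM in EtOH, and Cysltr1 and Ptger2 are higher in 4OHT.

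Markers of the granulocytes that use these enzymes moved in the same comparison, in which 12.0% of all tested rows were called higher and 10.5% lower. Of 10 mast cell and basophil markers 9 rose, and their summed level went from 1369.8 to 5214 FPKM, led by Mcpt8, Prss34 and Cpa3. Kit and Gata2 of this list were also among the progenitor markers, so the rise of Gata2 is counted in both lists. Of 9 eosinophil markers, Alox15 itself being one, 8 rose, and the sum went from 134.8 to 4706 FPKM, led by Prg2, Epx and Prg3. All 9 neutrophil markers rose, and the sum went from 1049.5 to 20195 FPKM, led by S100a8, S100a9 and Elane. Of 9 monocyte and macrophage markers 5 rose and 1, Emr1, fell, and the sum went from 258.6 to 172.8 FPKM, led by Emr1, Cd68 and Ccr2. None of the markers in these 4 lists was listed at 0 in both conditions, and Cx3cr1, C1qa and Il5ra were among those that stayed under 1 FPKM. The part of these cell types in the changes of the eicosanoid genes was not tested. Platelet markers, of interest because platelets use Ptgs1 and Tbxas1, summed to 102 and 93.5 FPKM, with 1 of 7 risen (Vwf) and 1 fallen (Pf4). The erythroid markers summed to 202 and 81.5 FPKM, nearly all from the joint entry of Hbb-b1 and Hbb-b2.

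No locus of the 10 genes overlapped another row. Pla2g4a and Ptgs2 are near each other on chromosome 1, with 139 kb between them, and they changed in opposite directions. The row 7530420F21Rik, at 0 FPKM in both conditions, lies between them. Within 200 kb of the 10 loci lay 80 rows, of which 45 were tested. Of those 45, 7 were higher and 5 lower in EtOH, including Pla2g4a and Ptgs2, beside 12.0% and 10.5% of all tested rows. Of the rest, Hal, the histidine ammonia lyase gene 3.87 kb from Lta4h, rose from 0.169 to 3.68 FPKM, and Arrb2, Rnasek and Clec10a near Alox15, Anubl1 near Alox5 and Maml1 near Ltc4s rose as well. Elk3 near Lta4h, Mgat4b and Canx near Ltc4s and Mettl11a near Ptges fell. Alox12 and Alox12e, lipoxygenase genes within 200 kb of Alox15, were at 0.0316 and 0.0353 FPKM and at 0 and 0.179 FPKM.

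Promoter sequences from RefSeq (build GRCm38.p6, which is not the mm9 build of the table) were at hand for 8 of the 10 genes, in 9 windows, and not for Alox5ap and Alox15. The 250 bases before the start were searched on both strands for GATAA (GATA factors), for TGACAG (Meis), for GAGGAA (PU.1), for GGGCGG (the GC box), for TATAA (the TATA box) and for TTNNGNAA (C/EBP). Of all 32851 RefSeq windows of that length 23.3% hold GAGGAA, and 6 of the 9 windows did, those of Alox5, Lta4h, Ptgs1, Ptgs2, Ptges and Hpgds. The C/EBP motif was in 4 of the 9 windows against 36.8% of all, the GC box in 3 against 32.7%, GATAA in 2 against 22.6%, TATAA in 1 against 22.8% and TGACAG in none against 15.9%. GAGGAA was found both in genes that rose and in Lta4h and Hpgds, which did not pass, and such matches are descriptions of letters, not sites. Shown are the cyclooxygenase genes and Alox5, which rose, and Pla2g4a, the neighbour of Ptgs2 that fell, each 5′ to 3′ on the gene's strand and ending at the base before the start, with matches in capitals. The windows are chr6:116461179-116461428 (Alox5, minus strand), chr2:36230176-36230425 (Ptgs1, plus strand), chr1:150099781-150100030 (Ptgs2, plus strand) and chr1:149961291-149961540 (Pla2g4a, minus strand).
Alox5: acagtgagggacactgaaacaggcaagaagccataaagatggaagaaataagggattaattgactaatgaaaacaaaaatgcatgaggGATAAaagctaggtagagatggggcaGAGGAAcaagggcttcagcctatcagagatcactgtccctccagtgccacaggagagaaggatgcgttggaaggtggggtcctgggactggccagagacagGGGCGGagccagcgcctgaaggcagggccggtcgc
Ptgs1: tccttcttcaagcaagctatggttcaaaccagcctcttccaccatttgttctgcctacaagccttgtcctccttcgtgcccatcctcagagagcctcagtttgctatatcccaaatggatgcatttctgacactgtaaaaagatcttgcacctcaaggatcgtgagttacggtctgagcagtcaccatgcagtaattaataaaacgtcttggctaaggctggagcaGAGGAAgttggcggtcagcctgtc
Ptgs2: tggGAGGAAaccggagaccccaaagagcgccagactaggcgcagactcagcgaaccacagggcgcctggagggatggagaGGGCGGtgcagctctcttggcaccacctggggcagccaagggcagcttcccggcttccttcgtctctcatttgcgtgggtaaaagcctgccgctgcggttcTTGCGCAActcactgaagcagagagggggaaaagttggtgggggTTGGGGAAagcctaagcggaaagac
Pla2g4a: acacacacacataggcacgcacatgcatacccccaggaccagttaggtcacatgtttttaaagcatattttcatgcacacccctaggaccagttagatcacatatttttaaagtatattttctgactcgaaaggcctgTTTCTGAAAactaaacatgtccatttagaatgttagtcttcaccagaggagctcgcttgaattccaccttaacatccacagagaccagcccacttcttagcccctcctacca
In the Alox5 window the capitals are, from left to right, GATAA, then GAGGAA and then GGGCGG, the last from 35 to 30 bases before the start. The single match of Ptgs1 is GAGGAA, from 24 to 19 bases before the start. Ptgs2 has GAGGAA, then GGGCGG and then C/EBP matches at 2 places, of which the one from 69 to 62 bases before the start matches on both strands. The capitals of Pla2g4a are overlapping C/EBP matches on opposite strands. Pla2g4a has a second RefSeq window, chr1:149922440-149922689, not printed, which holds 2 GATAA and 2 TATAA matches and none for C/EBP, and it is the TATAA window and 1 of the 2 GATAA windows counted above. The table measures RNA and holds no binding data for these windows.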

How the data were processed

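RNA of mouse bone marrow progenitors was sequenced in 2 conditions, 4OHT and EtOH, each deposited as 1 value per gene for 2 replicates. Cuffdiff 2.0.2, Bowtie2 2.0.0.7, CASAVA 1.8.2 and the mm9 build are named in the submitters' processing notes. Not given in the sources used here are gene annotation, strand setting and library scaling. The authors deposited FPKM values per condition, and per the file headers also its p-value and its q-value for EtOH against 4OHT. Benjamini-Hochberg adjustment of those p-values over 11865 tested rows gave the deposited q to within 1.7e-06. No test of this work was possible with 1 value per condition. Whether Cuffdiff took the replicates as separate libraries, and whether they came from separate cultures, is not known here.

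Calls are q at most 0.05 and changes are log2((FPKM EtOH + 1)/(FPKM 4OHT + 1)), computed with Python 3.11.15, numpy 2.4.6, pandas 2.3.3 and figures with matplotlib 3.10.9. FPKM is relative to the whole library: scaling the EtOH sum (591496) to that of 4OHT (544802) shifts ratios by -0.12 on the log2 scale. The 10 genes, 5 pathway lists and 10 marker lists were chosen with earlier results of these data known. Named are the 10 genes, called pathway genes of at least 1 FPKM (at most 6 per list, by size of change), the 3 highest markers of a list, and called rows within 200 kb. Tbxas1, Pla2g12a and the other genes that did not pass, and markers beyond those 3, were named after their values were seen. Markers found under other names were matched through RefSeq synonyms. Depth was estimated from genes with 1 GENCODE M21 transcript of 800 to 6000 bases. Words of 50 bases shared between genes came from the same transcripts and made up at most 0.393% in the 10 genes. Coordinates have starts counted from 1. Calling and change steps were run on simulated data with q-values set by hand, which checks the code and not how reliable the calls are. Alternatives covered pseudocount, scaling, low-value filter and call rule.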

Additional observations from a re-analysis of the deposited data

How the results depend on the processing

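All 6 rises and the 1 fall among the 10 genes were also called at q at most 0.01, by count, and no locus overlapped another row of at least 1 FPKM. Requiring a ratio of at least 1.5 left 5 rises, without Ptgs1, and the 1 fall, and requiring 2-fold left 3 rises (Alox5ap, Alox15 and Ptges) and 0 falls. At q at most 0.01 the other pathway genes had 13 rises and 5 falls, without the falls of Pla2g6 and Acsl3. At 2-fold the other pathway genes had 11 rises and 4 falls in place of 13 and 7. The median of the 10 genes, 0.52, was 0.72 with a pseudocount of 0.1 and 0.33 with 5. It was 0.42 with the EtOH total scaled to that of 4OHT, 0.58 with the median ratio of rows of at least 5 FPKM set to 0, and 0.63 over the 8 genes of at least 1 FPKM. The median of the other pathway genes, 0.21, was 0.23, 0.14, 0.10 and 0.28 under those first 4 settings, and 0.01 with no filter on low values. Of 30 called or member genes followed under these 4 settings, 0 of 120 log2 changes took the other sign. A change of pseudocount cannot turn a sign. The scalings were small, a shift of -0.12 for the total and a median ratio of -0.07 set to 0. The count of signs therefore says little about how firm the changes are.

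No paired analysis was possible because the table holds 1 value per condition, and for the same reason no replicate was left out. The lowest values, those of Alox15 in 4OHT and of Ptges and Hpgds, rest on few fragments. Ltc4s, a short transcript, also rests on few, about 76 in 4OHT and 112 in EtOH. For Lta4h, Ltc4s and Hpgds, a q-value over the threshold does not show that their levels were equal.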
